A study of Mus musculus with 6 samples.

Results

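The genes of the TNF superfamily and of the NF-kappaB pathway were followed in mouse small-cell lung cancer (SCLC) cells with and without active TAZ. They were taken by symbol from the deposited expression table: the ligands Tnf and Tnfsf, the receptors Tnfrsf, the TNF-induced genes Tnfaip, the adaptors Traf, the ubiquitin ligases Birc2 and Birc3, and the subunits of IKK, NF-kappaB and IkappaB. This gave 58 genes of the 23361 symbols in the table, and 1 further receptor symbol of the same pattern was left out. The cells were SMC, the study's SCLC metastasizing cells, sorted as NCAM-high and CD44-low or CD44-negative from lung tumours of Rb1 L/L, Trp53 L/L mice and kept as a cell line of mixed background (C57Bl/6, Balb-c and S129). SMC-TAZ4SA cells (3 libraries) carried a virus with TAZ-4SA, a mutant of the co-activator TAZ that is always active. SMC-Ctrl cells (3 libraries) carried the control virus. Both groups shared the deletion of Rb1 and Trp53, the sort and the puromycin selection, and rested on a single cell line in culture.

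Ligands of the TNF superfamily bind receptors at the cell surface, and TRAF adaptors with the cIAP ubiquitin ligases pass the signal to the IKK kinase complex. In the classical pathway IKK marks the IkappaB inhibitors for destruction and frees dimers of RelA with the product of Nfkb1. In the alternative pathway the kinase NIK, which TRAF3 otherwise keeps low, acts through IKK-alpha on the product of Nfkb2, which pairs with RelB. Several inhibitors, among them IkappaB-alpha and A20 (Tnfaip3), are themselves known NF-kappaB target genes.

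Values are FPKM, read pairs per length of transcript and per number mapped in the library, so levels of different genes are compared per length. The FPKM summed to 324938 to 361800 in SMC-TAZ4SA libraries and 284422 to 297034 in SMC-Ctrl libraries, and the read number behind them is unknown. Wwtr1, the gene of TAZ, had 31.7, 36.0 and 35.8 FPKM in SMC-TAZ4SA, against 0.162, 0.105 and 0.162 FPKM in SMC-Ctrl. Pearson's r between libraries across the tested genes was 0.990 to 0.997 within groups and 0.654 to 0.664 between groups. Of 7 tested neuroendocrine SCLC markers, 6 were lower in SMC-TAZ4SA and 1, Ncam1, was higher. The mean of Ncam1 was 78.5 FPKM in SMC-TAZ4SA and 21.4 FPKM in SMC-Ctrl. At the protein level the study reports the opposite, a strong fall of NCAM with TAZ-4SA by western blot. This difference between RNA and protein was not resolved. In its data statement the study lists this series differently, as a comparison of SMC with non-SMC (tumour cells with low NCAM and high CD44). Groups were taken from the sample titles, and which source is right was not settled. No source says whether the libraries of a group are separate cultures, and p-values then cover only the spread among these libraries, which may be technical.

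The kappaB consensus, the sequence that NF-kappaB dimers bind, was searched on both strands in the 250 bases before each RefSeq transcription start (GRCm38.p6). Promoter windows were found for 47 of the 58 members. A match stood in 9 of these 47 (19.1%), in 6 of the 20 with a window that were higher in SMC-TAZ4SA (30%) and in 1 of the 7 that were lower (14.3%), against 4.46% of 27025 genes. Nfkb1, Relb, Nfkbiz, Tnfaip8, Tnfrsf22 and Tnfsf12, also higher, had no window and were not searched, nor were Ikbkb and Tnfsf9, which were lower. The sites of the higher members are shown because most of them stand before genes of NF-kappaB itself and of its inhibitors. Each line gives 30 bases of the gene's strand, 5′ to 3′, with the bases matching the consensus in capitals.
Nfkb2, 39 bases before its first start (chr19:46304688-46304717, + strand, overlapping matches on both strands): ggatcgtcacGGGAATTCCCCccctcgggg
Nfkb2, 11 bases before the same start (chr19:46304716-46304745, + strand): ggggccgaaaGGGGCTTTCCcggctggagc
Nfkb2, 236 bases before an alternative start (chr19:46305449-46305478, + strand): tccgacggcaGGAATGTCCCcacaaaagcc
Nfkb2, 225 bases before another alternative start (chr19:46305695-46305724, + strand): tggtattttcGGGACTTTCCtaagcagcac
Nfkbia, 29 bases before its start (chr12:55492657-55492686, - strand): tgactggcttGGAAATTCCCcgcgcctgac
Tnfaip3, 12 bases before its start (chr10:19015403-19015432, - strand): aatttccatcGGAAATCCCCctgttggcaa
Tnfaip3, 125 bases before its start (chr10:19015516-19015545, - strand): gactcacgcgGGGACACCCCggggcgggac
Rel, 92 bases before its start (chr11:23771042-23771071, - strand, overlapping matches on both strands): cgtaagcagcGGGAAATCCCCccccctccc
Nfkbie, 106 bases before its start (chr17:45555584-45555613, + strand): gcagcaaacaGGGGGATTCCggaggggcgg
Traf3, 10 bases before its start (chr12:111166350-111166379, + strand): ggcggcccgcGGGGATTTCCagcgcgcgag
The 1 lower member with a match, Nfkbid, carried 2 and is shown for comparison. Both stand before an alternative start inside the annotated gene, and that is the start meant in its lines. The window before its first start held no match.
Nfkbid, 181 bases before its start (chr7:30422215-30422244, + strand): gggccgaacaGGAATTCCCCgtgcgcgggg
Nfkbid, 226 bases before its start (chr7:30422170-30422199, + strand): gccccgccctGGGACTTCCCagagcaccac
A match is a description of letters and not a bound site. No match was found in the window of Tnfrsf12a, the member with the highest level in SMC-TAZ4SA.

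TEAD factors, through which TAZ binds DNA, recognise GGAATG. This motif, read on both strands, stood in the windows of 2 of the 20 higher members (10%) and of none of the 7 lower members, against 14.4% of all genes. The 2 genes were Nfkb2 and Tnfrsf1b. The match of Nfkb2 lies inside the kappaB match printed for its first alternative start. Tnfrsf1b carried 2 matches and is the only other of the 20 searched higher members with any.
Tnfrsf1b, 62 bases before its start (chr4:145246913-145246942, - strand, motif on the strand opposite to the gene): cggccccgccCATTCCcgccctccccccac
Tnfrsf1b, 183 bases before its start (chr4:145247034-145247063, - strand, motif on the strand opposite to the gene): gaagcgcattCATTCCcggaagagatgctg
The AP-1 motif TGANTCA stood in 3 of the 20 higher members (15%) and in 1 of the 7 lower members (14.3%), against 7.82% of all genes. For Tnfrsf12a, the 231 bases before its annotated first base (chr17:23677469-23677699, - strand) are shown because this receptor had the highest level of all members in SMC-TAZ4SA, and none of the 3 motifs was found in them.
Tnfrsf12a: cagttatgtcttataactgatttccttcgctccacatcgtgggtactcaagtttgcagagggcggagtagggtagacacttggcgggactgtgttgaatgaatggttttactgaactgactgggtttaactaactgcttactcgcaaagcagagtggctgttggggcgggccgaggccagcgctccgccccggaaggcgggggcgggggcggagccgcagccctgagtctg

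To ask how TNF superfamily signalling genes differ with active TAZ, SMC-TAZ4SA was compared with SMC-Ctrl. All 5 NF-kappaB subunits, 4 of 5 IkappaB genes, all 4 tested TNF-induced genes and 5 of 8 tested receptors were higher in SMC-TAZ4SA, among them the TWEAK receptor Tnfrsf12a. Of the IKK subunits 1 was higher and 2 were lower, all by small steps, and most ligands were at or near 0 in both groups. Genes entered the test with 1 FPKM or more in at least 3 libraries, as did 36 of the 58 members. At an adjusted p of 0.05 over 12141 genes, limma on log2(FPKM + 1) called 26 members higher (72.2%) and 9 lower (25%), and 1 did not pass. Over all tested genes, limma called 80.3% in either direction, 40.7% higher and 39.7% lower. A call by itself therefore says little here, since most genes were called.

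The median log2 fold change of the 36 tested members was 0.92, against 0.02 over all tested genes, and the members ran between −0.90 and 4.58. In all, 18 of the 36 members (50%) were higher by at least 1 on this scale and none was lower by as much, against 15.6% and 16.7% of all tested genes. With a pseudocount of 0.1 in place of 1, the step was at least 1 for 18 members on the higher side and for 3 on the lower side (Nfkbid, Tnfrsf18 and Tnfrsf25), against 17.6% and 19.4% of all genes. The libraries of the groups did not overlap for the same 26 members on the higher side and 9 on the lower side. Over all tested genes the groups did not overlap with SMC-TAZ4SA higher for 41.8% and with SMC-TAZ4SA lower for 40.6%. The filter favoured genes that were high in 1 group: 9 of the tested members stayed below 1 FPKM in every SMC-Ctrl library and 3 in every SMC-TAZ4SA library. Of the 24 members that reached 1 FPKM in both groups, 17 were higher (70.8%), 6 were lower (25%) and 1 was not called. Their median was 0.74. Of all 10216 genes that reached it in both groups, 39.4% were higher and 37.3% were lower, with a median of 0.02. When libraries were scaled to 1 common total, 23 of the 36 members were higher and 10 lower, while 3960 of all 12150 genes tested on that scale were higher and 5910 lower.

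**Figure D1:**
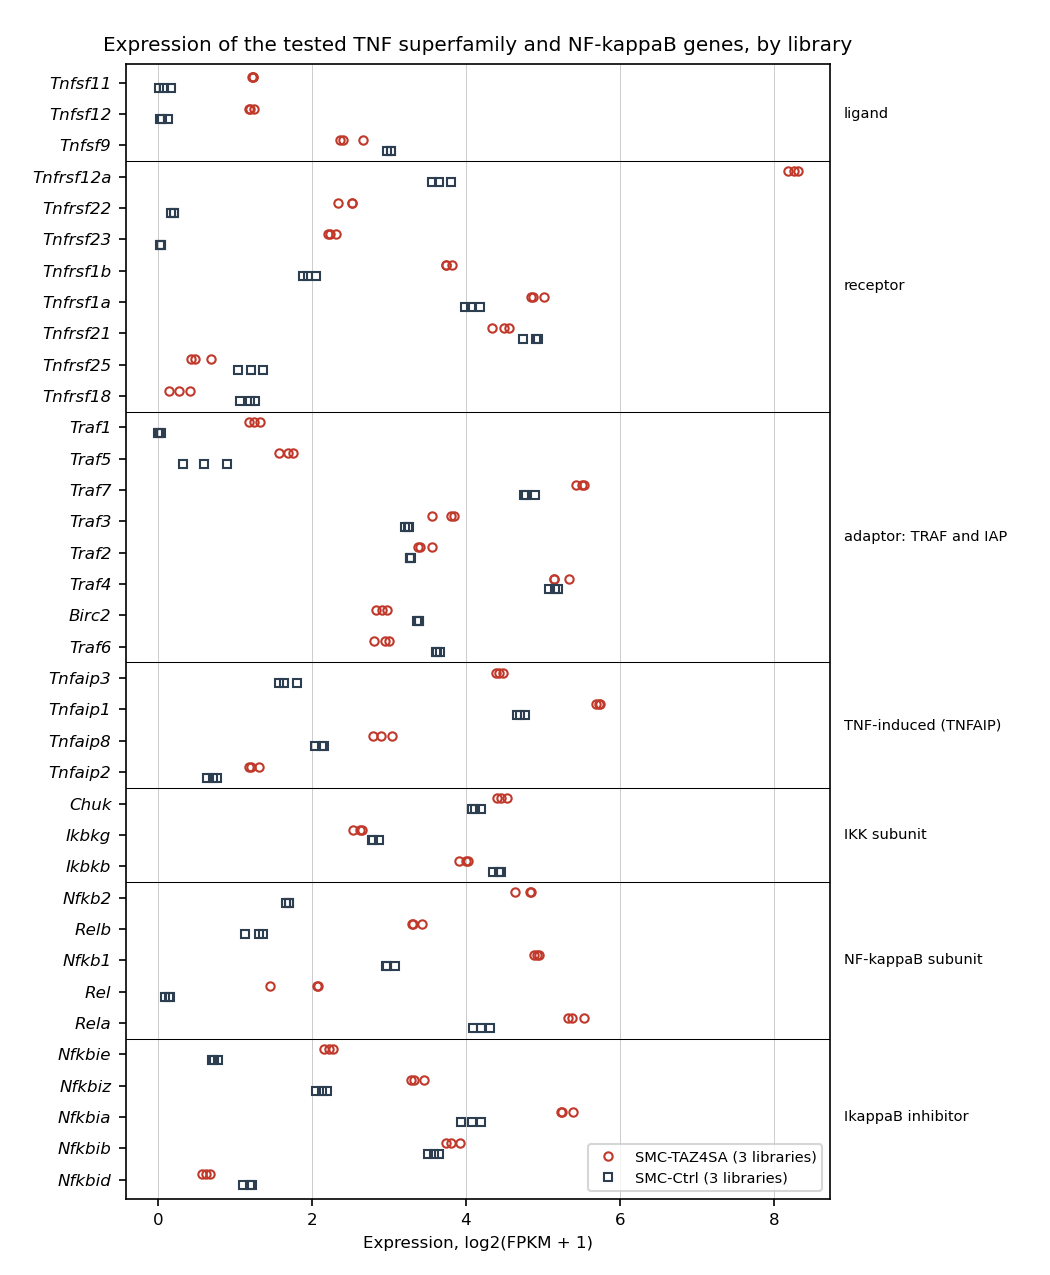
Expression of the 36 tested members as log2(FPKM + 1), with the 3 SMC-TAZ4SA libraries (circles) drawn above the 3 SMC-Ctrl libraries (squares) for each gene and the genes grouped by role. Circles and squares are apart for 35 members and interleave only for Traf4.

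**Figure D2:**
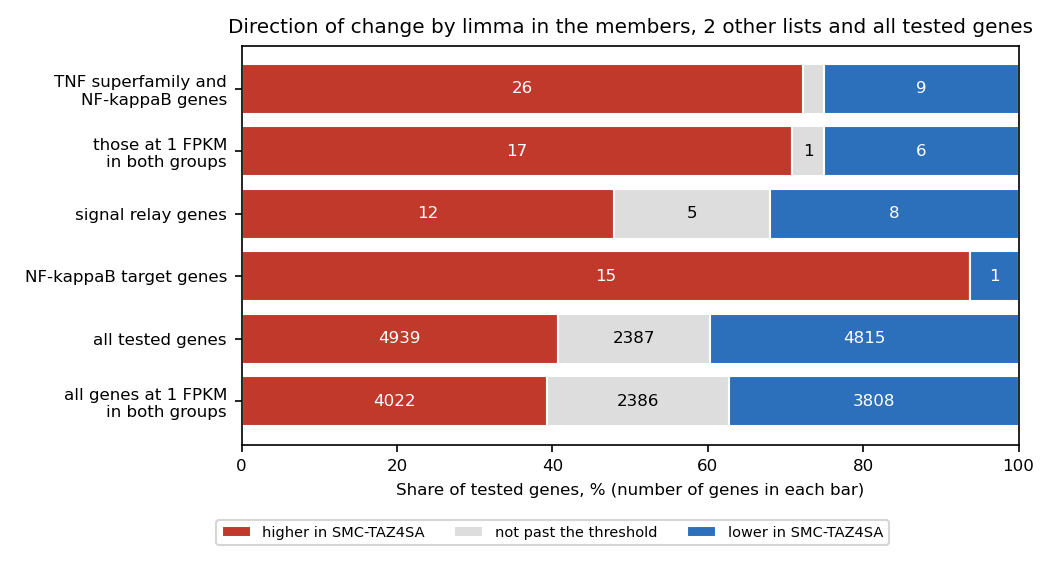
Share of tested genes that limma called higher (left segment), did not call (middle) or called lower (right segment) in SMC-TAZ4SA, with the number of genes printed in all but the narrowest segments. Members of the TNF superfamily and NF-kappaB were higher in 26 of 36 cases and in 17 of 24 where both groups reached 1 FPKM, against 4939 of 12141 and 4022 of 10216 genes; 10 of the 16 tested target genes stayed below 1 FPKM in every SMC-Ctrl library and could not have been called lower.

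Of the 12 ligands, 3 were tested. Tnfsf11 (RANKL, the osteoclast-inducing ligand; chromosome 14, 78277445 to 78308043 of GRCm38) had 1.36, 1.33 and 1.36 FPKM in SMC-TAZ4SA, against 0.0122, 0.0560 and 0.126 FPKM in SMC-Ctrl. The groups did not overlap, and the log2 fold change was 1.14 (SE 0.0536, limma adjusted p = 2.41e-07), or 3.20 with a pseudocount of 0.1. Tnfsf12 (TWEAK, the ligand of Tnfrsf12a; chromosome 11, 69686250 to 69695849) had 1.38, 1.28 and 1.28 FPKM in SMC-TAZ4SA, against 0.0171, 0.0944 and 0.0352 FPKM in SMC-Ctrl. It was higher by 1.14 as well (SE 0.0505, limma adjusted p = 1.69e-07), or by 3.28 with a pseudocount of 0.1. The gene lies 466 bases from Tnfsf13 and inside the annotated readthrough gene Tnfsfm13, so reads of the 3 may not be told apart. Tnfsf9, a ligand that co-stimulates T cells through Tnfrsf9, was the most abundant ligand and the one that was lower. It had 4.27, 5.35 and 4.14 FPKM in SMC-TAZ4SA, against 6.90, 7.19 and 7.12 FPKM in SMC-Ctrl. All SMC-TAZ4SA libraries were below all SMC-Ctrl libraries, with a log2 fold change of −0.54 (SE 0.0885, limma adjusted p = 0.000635). Tnfsf9 shares 618 bases with Gm11110 on the opposite strand, whose mean was 0.948 FPKM in SMC-TAZ4SA and 4.95 FPKM in SMC-Ctrl. Whether counting used the strand is not given, so the level of Tnfsf9 is uncertain.

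The other 9 ligands did not reach the filter. Tnfsf13b (BAFF, a survival factor of B cells) was the highest of them, with 0.229, 0.0805 and 0.0474 FPKM in SMC-TAZ4SA and 0.580, 0.917 and 0.932 FPKM in SMC-Ctrl. Tnf itself had 0.0938, 0.0214 and 0.0252 FPKM in SMC-TAZ4SA and 0.0544, 0.0334 and 0 FPKM in SMC-Ctrl. The groups overlapped for Tnf and were apart for Tnfsf13b. Tnfsf15 and Tnfsf18 were at 0.0749 to 0.195 FPKM in SMC-TAZ4SA and listed at 0 in every SMC-Ctrl library. Tnfsf4 and Tnfsf8, the ligands of OX40 and CD30, were listed at 0 in all 6 libraries. An exact 0 can be a failed estimate in this table: Rps12 and Rps28, genes of ribosomal proteins, were also at 0 throughout.

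Among the 19 receptors, Tnfrsf12a (Fn14, the receptor of TWEAK; chromosome 17, 23675445 to 23677468) was the most abundant in SMC-TAZ4SA and, with a pseudocount of 1, the one with the largest fold change. It had 316, 306 and 289.5 FPKM in SMC-TAZ4SA, against 10.8, 11.6 and 13.0 FPKM in SMC-Ctrl. The lowest SMC-TAZ4SA library stood far above the highest SMC-Ctrl library. The mean was 304 ± 13.4 FPKM in SMC-TAZ4SA and 11.8 ± 1.14 FPKM in SMC-Ctrl (SD, n = 3 each), a log2 fold change of 4.58 (SE 0.0802, limma adjusted p = 8.55e-10). With a pseudocount of 0.1 its log2 fold change was 4.68, below the 4.97 of Tnfrsf23. By fold change with a pseudocount of 1, Tnfrsf12a ranked 137 from the highest of 12141 tested genes, and by level it ranked 104 in SMC-TAZ4SA. Its ligand Tnfsf12 reached at most 1.38 FPKM in the same libraries.

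Tnfrsf22 and Tnfrsf23 are neighbouring mouse genes of decoy receptors that bind the ligand TRAIL without passing on a death signal. Tnfrsf22 (chromosome 7, 143634806 to 143649661) had 4.08, 4.72 and 4.73 FPKM in SMC-TAZ4SA, against 0.119, 0.153 and 0.160 FPKM in SMC-Ctrl. Tnfrsf23 (chromosome 7, 143665809 to 143685872) had 3.70, 3.64 and 3.95 FPKM in SMC-TAZ4SA, against 0.0235, 0.0215 and 0.0243 FPKM in SMC-Ctrl. Both were apart between groups, with log2 fold changes of 2.27 for Tnfrsf22 (SE 0.0641, limma adjusted p = 1.07e-08) and 2.22 for Tnfrsf23 (SE 0.0503, limma adjusted p = 3.03e-09). With a pseudocount of 0.1 these were 4.24 for Tnfrsf22 and 4.97 for Tnfrsf23, since both genes were near 0 in SMC-Ctrl. Tnfrsf26, the next gene of the same cluster, stayed at or below 0.0245 FPKM in every library. The antisense gene E230032D23Rik covers all of Tnfrsf22 and part of Tnfrsf23, and whether counting used the strand is not given, so these levels are uncertain. Their ligand TRAIL (Tnfsf10) reached at most 0.0641 FPKM.

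The receptors of TNF were both higher. Tnfrsf1b (TNF receptor type II; chromosome 4, 145213463 to 145246870) had 12.4, 12.4 and 13.2 FPKM in SMC-TAZ4SA, against 2.68, 3.17 and 2.87 FPKM in SMC-Ctrl. The groups were apart, and the log2 fold change was 1.81 (SE 0.0683, limma adjusted p = 6.19e-08). Tnfrsf1a (TNF receptor type I, which carries a death domain) had 31.2, 28.2 and 27.7 FPKM in SMC-TAZ4SA, against 15.8, 17.1 and 14.9 FPKM in SMC-Ctrl. It was higher in every SMC-TAZ4SA library, by 0.83 on the log2 scale (SE 0.0748, limma adjusted p = 1.53e-05).

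Tnfrsf21, Tnfrsf25 and Tnfrsf18 were the 3 receptors that were lower. Tnfrsf18 (GITR, known from regulatory T cells) had 0.107, 0.329 and 0.204 FPKM in SMC-TAZ4SA, against 1.30, 1.09 and 1.40 FPKM in SMC-Ctrl. Its log2 fold change of −0.90 was the most negative of all members (SE 0.0821, limma adjusted p = 1.66e-05), also with a pseudocount of 0.1 (−2.17). The whole gene is overlapped by the antisense gene Gm16008. Tnfrsf21 (death receptor 6, known from neurons) was the most abundant receptor of SMC-Ctrl, with 19.2, 22.6 and 21.6 FPKM in SMC-TAZ4SA and 29.0, 29.8 and 25.7 FPKM in SMC-Ctrl. The groups were apart by a smaller step, −0.40 on the log2 scale (SE 0.0841, limma adjusted p = 0.00253), or −0.61 with the same total. Tnfrsf25, a death domain receptor of T cells, had a log2 fold change of −0.67, or −1.37 with a pseudocount of 0.1.

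The order of receptor levels therefore differed between the groups. In SMC-TAZ4SA the means ran Tnfrsf12a, Tnfrsf1a, Tnfrsf21, Tnfrsf1b, and each was above the next in every library. In SMC-Ctrl they ran Tnfrsf21, Tnfrsf1a, Tnfrsf12a, Tnfrsf1b, again with no overlap between neighbours in that order.

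A total of 11 receptors did not reach the filter. Tnfrsf4 (OX40) was the highest, with 1.22, 0.638 and 0.904 FPKM in SMC-TAZ4SA and 0.572, 0.792 and 0.587 FPKM in SMC-Ctrl, and the groups overlapped. Tnfrsf11b (osteoprotegerin, the soluble decoy of RANKL) had 0.621, 0.584 and 0.705 FPKM in SMC-TAZ4SA and was listed at 0 in every SMC-Ctrl library. Tnfrsf11a (RANK, the signalling receptor of RANKL) had 0.288, 0.356 and 0.187 FPKM in SMC-TAZ4SA and 0.817, 0.810 and 0.733 FPKM in SMC-Ctrl. Thus the ligand RANKL and its decoy were higher, and its receptor lower, in every SMC-TAZ4SA library, of which only the ligand was tested. Tnfrsf9, the receptor of the Tnfsf9 ligand, had 0.649, 0.341 and 0.735 FPKM in SMC-TAZ4SA and was listed at 0 in SMC-Ctrl. It lies almost wholly inside the span of the gene Camta1 on the opposite strand. The B cell receptors Tnfrsf13b, Tnfrsf13c and Tnfrsf17 stayed at or below 0.152 FPKM in every library.

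**Figure D3:**
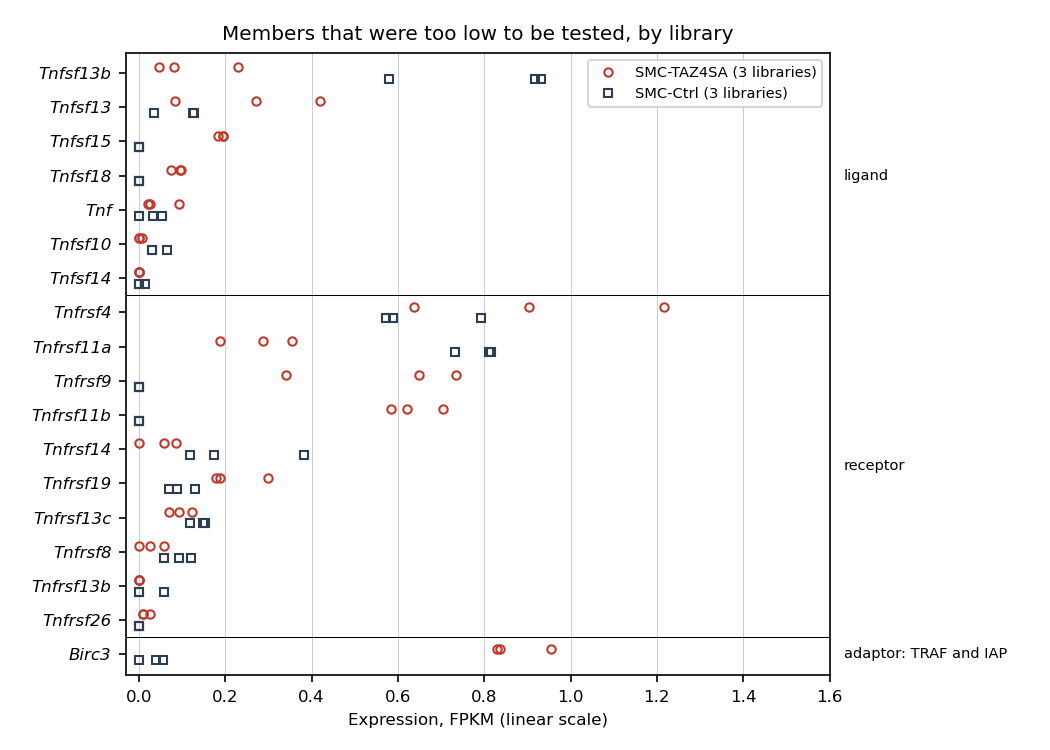
FPKM on a linear scale for the 18 members that did not reach the filter and were above 0 in some library, with the 3 SMC-TAZ4SA libraries (circles) above the 3 SMC-Ctrl libraries (squares). Birc3, Tnfrsf11b and Tnfrsf9 sit at 0.341 FPKM or more in SMC-TAZ4SA and at or below 0.0561 FPKM in SMC-Ctrl, while Tnfsf13b and Tnfrsf11a are placed the other way round.

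Of the 22 members without a test, 7 were higher in every SMC-TAZ4SA library than in any SMC-Ctrl library, 4 were lower in the same sense, 7 overlapped and 4 were listed at 0 throughout. Of all 5846 genes that were below the filter and above 0 in some library, the groups were apart in these senses for 22% and 24.8%.

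The adaptors changed in both directions, 5 higher, 2 lower and 1 not past the threshold among 8 tested. Traf1, an adaptor without the ubiquitin ligase domain of its relatives and a known NF-kappaB target, had 1.51, 1.27 and 1.37 FPKM in SMC-TAZ4SA, against 0.0116, 0.0320 and 0 FPKM in SMC-Ctrl. The groups were far apart for so low a level, with a log2 fold change of 1.23 (SE 0.0529, limma adjusted p = 1.40e-07), or 3.70 with a pseudocount of 0.1. Traf5, an adaptor close to Traf3, had 2.22, 1.99 and 2.36 FPKM in SMC-TAZ4SA, against 0.860, 0.511 and 0.252 FPKM in SMC-Ctrl. The SMC-Ctrl libraries of Traf5 spread widely and still lay below all SMC-TAZ4SA libraries, with a log2 fold change of 1.07 (SE 0.133, limma adjusted p = 0.000116), or 1.95 with a pseudocount of 0.1.

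Traf7, whose product acts with the kinase MEKK3, was the most abundant of those that were higher, with 45.3, 44.4 and 42.3 FPKM in SMC-TAZ4SA, against 26.5, 28.8 and 26.0 FPKM in SMC-Ctrl. The groups were apart by 0.68 on the log2 scale (SE 0.0638, limma adjusted p = 1.97e-05). Traf3, which targets NIK for destruction, had 10.8, 13.0 and 13.4 FPKM in SMC-TAZ4SA, against 8.49, 8.62 and 8.26 FPKM in SMC-Ctrl. It was higher by 0.50 (SE 0.0859, limma adjusted p = 0.000835), or 0.30 with the same total, with SMC-TAZ4SA replicate 1 nearest to the controls.

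Traf6, the adaptor of interleukin 1 and Toll-like receptors, had 6.02, 7.02 and 6.75 FPKM in SMC-TAZ4SA, against 11.6, 11.3 and 11.3 FPKM in SMC-Ctrl. It was lower by a clear step, −0.71 on the log2 scale (SE 0.0682, limma adjusted p = 2.31e-05). Birc2 (cIAP1, a ubiquitin ligase of the TNF receptor complex) had 6.90, 6.11 and 6.53 FPKM in SMC-TAZ4SA, against 9.46, 9.47 and 9.28 FPKM in SMC-Ctrl. It was lower by 0.47 in log2 terms, and no library crossed over. Its neighbour Birc3 (cIAP2, a known NF-kappaB target), 11635 bases away, went the other way with 0.836, 0.829 and 0.955 FPKM in SMC-TAZ4SA and 0.0561, 0 and 0.0386 FPKM in SMC-Ctrl. Birc3 was below the filter and was not tested.

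Traf2 and Traf4 had the smallest steps of all tested members. Traf2, the adaptor that brings the cIAPs to the receptors, had 10.8, 9.43 and 9.60 FPKM in SMC-TAZ4SA, against 8.77, 8.64 and 8.65 FPKM in SMC-Ctrl. Its log2 fold change of 0.17 only just passed (limma adjusted p = 0.0415) and did not pass when any 1 library other than SMC-TAZ4SA replicate 2 was left out (limma adjusted p = 0.0579 to 0.101), while on the same-total scale it was −0.02. Traf4 had 39.5, 34.3 and 34.4 FPKM in SMC-TAZ4SA and 32.9, 35.8 and 34.8 FPKM in SMC-Ctrl. The groups overlapped, with a log2 fold change of 0.06 (SE 0.0741, limma adjusted p = 0.476), and on the same-total scale it was −0.15 and passed (limma adjusted p = 0.0228).

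All 4 tested TNF-induced genes were higher. Tnfaip3 (A20, the enzyme that edits ubiquitin chains and shuts NF-kappaB signalling down; chromosome 10, 19000910 to 19015657), whose kappaB matches are printed above, had 20.6, 21.4 and 20.1 FPKM in SMC-TAZ4SA, against 2.11, 2.48 and 1.99 FPKM in SMC-Ctrl. The libraries of each group lay close together and far from the other group, with a log2 fold change of 2.77 (SE 0.0743, limma adjusted p = 7.83e-09). Tnfaip1, a substrate adaptor of a cullin ubiquitin ligase, had 52.5, 50.8 and 52.2 FPKM in SMC-TAZ4SA, against 25.0, 26.3 and 24.5 FPKM in SMC-Ctrl. It was the most abundant of these genes and was higher by 1.01 (SE 0.0568, limma adjusted p = 7.61e-07).

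Tnfaip8, a regulator of cell survival, had 7.21, 6.46 and 5.92 FPKM in SMC-TAZ4SA, against 3.12, 3.46 and 3.38 FPKM in SMC-Ctrl. Tnfaip2 had 1.27, 1.32 and 1.47 FPKM in SMC-TAZ4SA, against 0.557, 0.699 and 0.635 FPKM in SMC-Ctrl. Neither overlapped between groups, and the log2 fold changes were 0.80 for Tnfaip8 (SE 0.0783, limma adjusted p = 2.64e-05) and 0.53 for Tnfaip2 (SE 0.0586, limma adjusted p = 5.65e-05), the second 0.99 with a pseudocount of 0.1. Tnfaip6, which encodes a hyaluronan-binding protein of inflamed tissue, was listed at 0 in all 6 libraries.

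The IKK complex showed the smallest changes of all roles. Chuk (the kinase IKK-alpha) had 21.0, 22.1 and 20.2 FPKM in SMC-TAZ4SA, against 17.3, 15.9 and 16.4 FPKM in SMC-Ctrl, a log2 fold change of 0.33 (SE 0.0620, limma adjusted p = 0.00126) that was 0.13 and did not pass on the same-total scale. Ikbkb (the kinase IKK-beta) had 15.2, 14.0 and 15.0 FPKM in SMC-TAZ4SA, against 19.5, 21.0 and 20.6 FPKM in SMC-Ctrl. So the catalytic subunits changed in opposite directions, Ikbkb by −0.44 (SE 0.0609, limma adjusted p = 0.000225).

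Ikbkg (NEMO, the scaffold of the complex) had 4.79, 5.30 and 5.15 FPKM in SMC-TAZ4SA, against 5.96, 5.86 and 6.31 FPKM in SMC-Ctrl. Its log2 fold change was −0.21 (SE 0.0629, limma adjusted p = 0.0142), or −0.40 with the same total, and without SMC-Ctrl replicate 3 it did not pass (limma adjusted p = 0.0571). Ikbkg shares 19712 bases with G6pdx on the opposite strand. The summed level of the 3 subunits was 40.4 to 41.5 FPKM in SMC-TAZ4SA and 42.8 to 43.4 FPKM in SMC-Ctrl.

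All 5 NF-kappaB subunits were higher, and their summed level was 107.5 to 110.6 FPKM in SMC-TAZ4SA, against 26.4 to 30.2 FPKM in SMC-Ctrl. Nfkb2, which encodes the precursor of the alternative pathway (chromosome 19, 46304320 to 46312385), had 24.0, 27.7 and 27.6 FPKM in SMC-TAZ4SA, against 2.24, 2.26 and 2.16 FPKM in SMC-Ctrl. The groups were far apart, with means of 26.4 ± 2.08 FPKM in SMC-TAZ4SA and 2.22 ± 0.0544 FPKM in SMC-Ctrl (SD, n = 3 each) and a log2 fold change of 3.09 (SE 0.0716, limma adjusted p = 3.43e-09). Relb, its partner (chromosome 7, 19606217 to 19629438), had 9.80, 8.84 and 8.96 FPKM in SMC-TAZ4SA, against 1.48, 1.57 and 1.18 FPKM in SMC-Ctrl. It was higher by 2.08 in log2 terms (SE 0.0799, limma adjusted p = 6.75e-08).

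Nfkb1, which encodes the precursor of the classical pathway (chromosome 3, 135584655 to 135691547), had 29.8, 29.4 and 28.6 FPKM in SMC-TAZ4SA, against 6.83, 7.44 and 6.86 FPKM in SMC-Ctrl. The log2 fold change was 1.91 (SE 0.0587, limma adjusted p = 1.71e-08), with no overlap. Rela, the subunit with the highest level in both groups (chromosome 19, 5637483 to 5648130), had 45.2, 40.5 and 39.2 FPKM in SMC-TAZ4SA, against 17.4, 18.8 and 16.1 FPKM in SMC-Ctrl. Its step of 1.21 was the smallest of the 5 subunits (SE 0.0812, limma adjusted p = 2.32e-06).

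Rel, the c-Rel subunit known from lymphocytes (chromosome 11, 23736847 to 23770970), had 1.75, 3.19 and 3.21 FPKM in SMC-TAZ4SA, against 0.0669, 0.113 and 0.106 FPKM in SMC-Ctrl. SMC-TAZ4SA replicate 1 was low for its group and still above every SMC-Ctrl library, and the log2 fold change was 1.73 (SE 0.155, limma adjusted p = 1.47e-05), or 3.81 with a pseudocount of 0.1. The order of mean levels was Rela, Nfkb1, Nfkb2, Relb and Rel in both groups, and no neighbours in that order overlapped within a group.

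Ratios between subunits within a library do not depend on how libraries are scaled. These ratios were chosen after the values were seen. The FPKM of Nfkb2 over that of Nfkb1 was 0.806, 0.942 and 0.964 in SMC-TAZ4SA, against 0.329, 0.304 and 0.315 in SMC-Ctrl. That of Relb over Rela was 0.217, 0.218 and 0.229 in SMC-TAZ4SA, against 0.0849, 0.0834 and 0.0735 in SMC-Ctrl. Both ratios were higher in all 3 SMC-TAZ4SA libraries (exact permutation p = 0.1 for each, 2-sided, the smallest that 3 against 3 libraries allow). So Nfkb2 was higher relative to Nfkb1, and Relb relative to Rela, in these libraries, by differences of 0.588 and 0.141. This covers these 2 pairs and not the pathways as a whole. Rel was in no ratio. With a pseudocount of 0.1 its log2 fold change was 3.81, against 3.51 for Nfkb2 and 2.63 for Relb. The ratio of Nfkbia over Rela, the classical inhibitor over its target, was 0.908, 0.905 and 0.944 in SMC-TAZ4SA and 0.820, 0.924 and 0.992 in SMC-Ctrl. The groups overlapped for it (exact permutation p = 0.9, 2-sided). Ratios outside the subunits were computed as well. Birc3 over Birc2 was higher in every SMC-TAZ4SA library (exact permutation p = 0.1, 2-sided), with Birc3 below the filter. Traf2 over Traf3 overlapped between the groups (exact permutation p = 0.2, 2-sided).

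**Figure D4:**
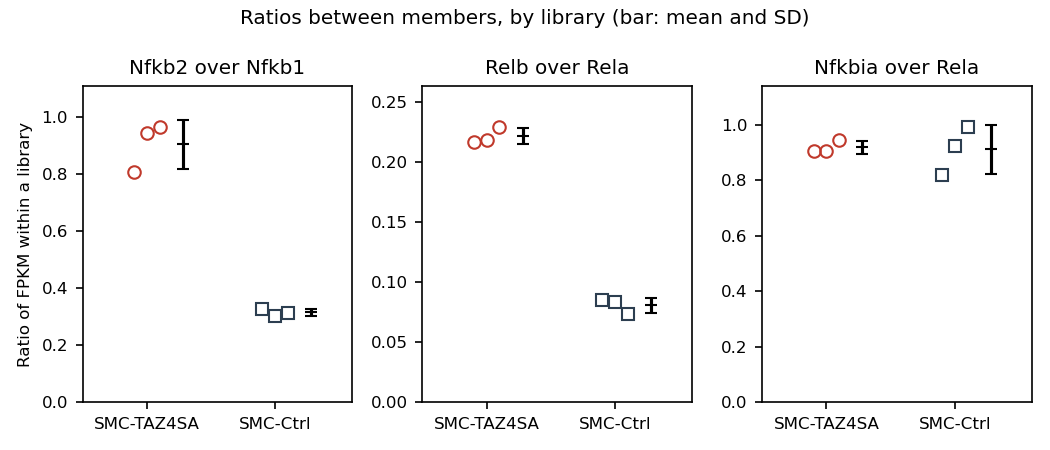
Ratio of the FPKM of 2 members within each library for SMC-TAZ4SA (circles) and SMC-Ctrl (squares), with the mean and SD of 3 libraries beside them. Nfkb2 over Nfkb1 lies at 0.806 to 0.964 in SMC-TAZ4SA and 0.304 to 0.329 in SMC-Ctrl, Relb over Rela at 0.217 to 0.229 and 0.0735 to 0.0849, and Nfkbia over Rela overlaps between the groups.

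The IkappaB inhibitors were higher in 4 of 5 cases. Nfkbia (IkappaB-alpha; chromosome 12, 55489410 to 55492647), the most abundant, had 41.1, 36.7 and 37.0 FPKM in SMC-TAZ4SA, against 14.3, 17.4 and 15.9 FPKM in SMC-Ctrl. The groups were apart by 1.22 (SE 0.0841, limma adjusted p = 2.76e-06). Nfkbie (IkappaB-epsilon) had 3.83, 3.65 and 3.46 FPKM in SMC-TAZ4SA, against 0.655, 0.621 and 0.722 FPKM in SMC-Ctrl. It had the largest step of the inhibitors, 1.48 (SE 0.0569, limma adjusted p = 6.92e-08), or 2.29 with a pseudocount of 0.1.

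Nfkbiz (IkappaB-zeta, a nuclear member that acts as a co-activator) had 8.80, 9.96 and 9.01 FPKM in SMC-TAZ4SA, against 3.14, 3.57 and 3.38 FPKM in SMC-Ctrl, a log2 fold change of 1.23 (SE 0.0711, limma adjusted p = 8.87e-07). Nfkbid, also a nuclear member, was the exception, with 0.489, 0.540 and 0.599 FPKM in SMC-TAZ4SA, against 1.33, 1.30 and 1.16 FPKM in SMC-Ctrl. It was lower in every SMC-TAZ4SA library, with a log2 fold change of −0.55 (SE 0.0549, limma adjusted p = 2.87e-05), or −1.08 with a pseudocount of 0.1. The window of an alternative start of Nfkbid held kappaB matches too. Nfkbib (IkappaB-beta) had 14.2, 12.4 and 13.0 FPKM in SMC-TAZ4SA, against 10.4, 11.6 and 11.0 FPKM in SMC-Ctrl. Its step of 0.24 passed (SE 0.0708, limma adjusted p = 0.0126) but not without SMC-Ctrl replicate 1 (limma adjusted p = 0.0572), nor with the same total (log2 fold change 0.04) or the same upper quartile (0.10).

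**Figure D5:**
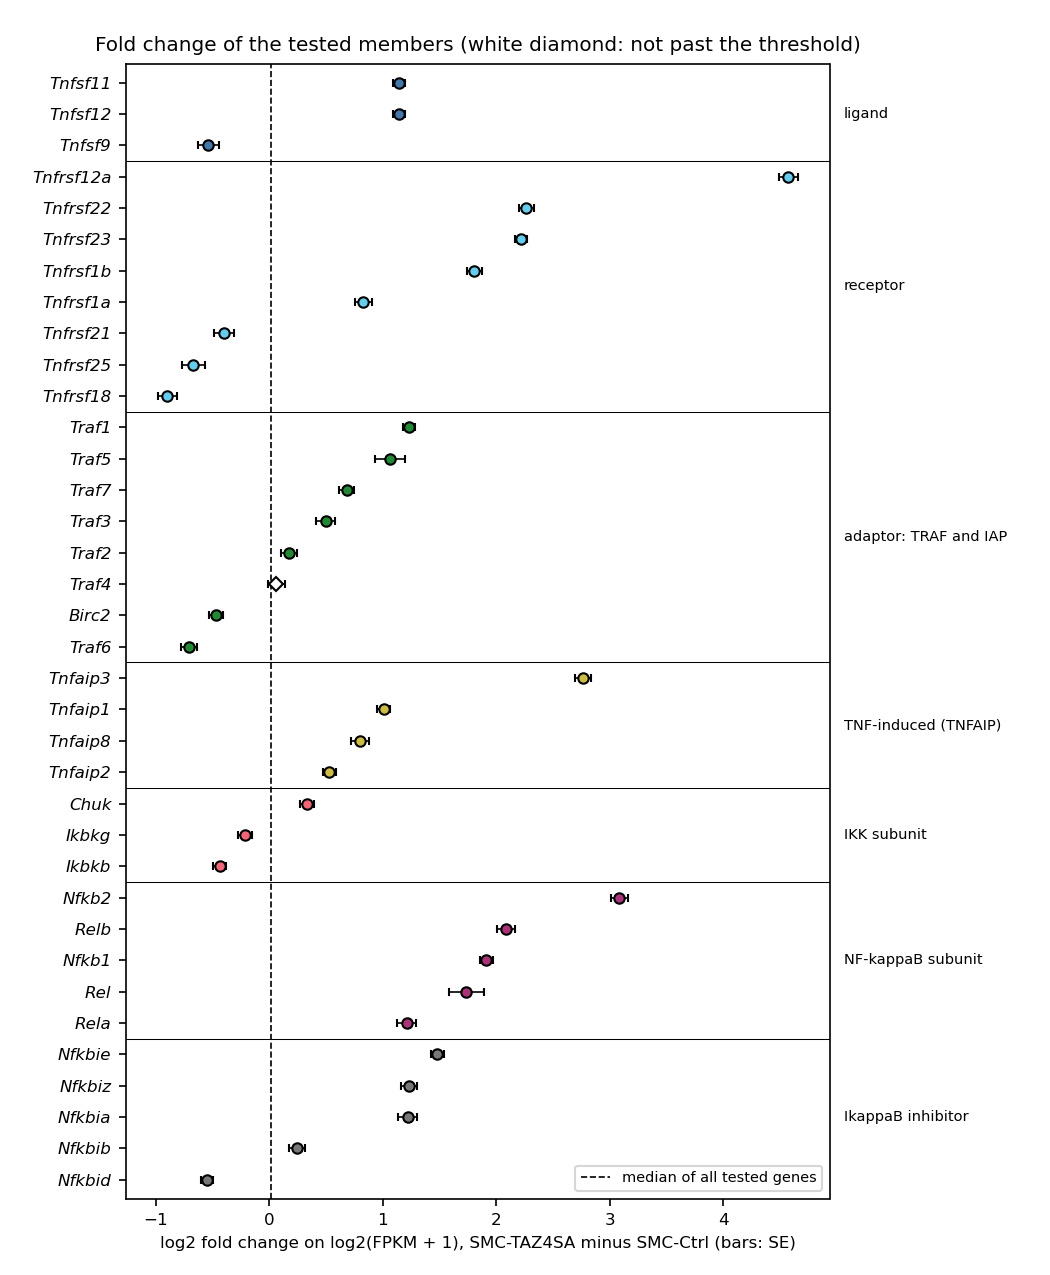
Log2 fold change on the log2(FPKM + 1) scale, SMC-TAZ4SA minus SMC-Ctrl, for the 36 tested members grouped by role, with bars of 1 SE and a dashed line at the median of all tested genes (0.02). Tnfrsf12a (4.58), Nfkb2 (3.09) and Tnfaip3 (2.77) stand highest on this scale, all 5 NF-kappaB subunits lie at 1.21 or more, and the 3 IKK subunits lie between −0.44 and 0.33.

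Other genes of the family and the pathway were taken from lists. Of 8 TNF receptors with other symbols, 4 were tested and all 4 were higher. The share called higher was 40.7% over all tested genes and 39.4% over those that reached 1 FPKM in both groups. But 2 of the 4, Fas and Cd40, stayed below 1 FPKM in every SMC-Ctrl library and could not have been called lower. Fas, a death receptor, had 15.2, 10.9 and 10.9 FPKM in SMC-TAZ4SA and was listed at 0 in every SMC-Ctrl library. Relt had 11.9, 11.2 and 11.3 FPKM in SMC-TAZ4SA, against 2.72 FPKM in each SMC-Ctrl library (log2 fold change 1.75, limma adjusted p = 2.32e-08). Ltbr, the lymphotoxin receptor that activates the alternative pathway, had 47.9, 45.0 and 43.4 FPKM in SMC-TAZ4SA, against 15.0, 15.1 and 13.3 FPKM in SMC-Ctrl (log2 fold change 1.59, limma adjusted p = 1.70e-07). Of 6 ligands with other symbols only Eda, the ligand of skin appendage development, was tested, and it was lower by 0.60.

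Of 27 genes that relay the signal from receptors to IKK, 25 were tested: 12 were higher, 8 lower and 5 not past the threshold. Over all tested genes, limma called 40.7% higher and 39.7% lower. The median log2 fold change of the 25 relay genes was 0.16, against 0.02 for all genes. The largest steps were those of Card10, a scaffold of the BCL10 complex (1.93), the ubiquitin receptor Optn (1.62) and Map3k14 (1.34). Map3k14, which encodes NIK, had 6.36, 6.16 and 6.20 FPKM in SMC-TAZ4SA, against 1.69, 2.01 and 1.91 FPKM in SMC-Ctrl (SE 0.0634, limma adjusted p = 2.60e-07). The most negative steps were Azi2 (−0.59), the caspase inhibitor Xiap (−0.57) and Rbck1 (−0.51), a subunit of the linear ubiquitin ligase.

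Of 33 known NF-kappaB target genes, 16 were tested, 15 of which were higher and 1 lower, with a median log2 fold change of 2.0. Of the 16, 10 stayed below 1 FPKM in every SMC-Ctrl library, 4 of these listed at 0, and so could not have been called lower. The fold changes of these 10 could only be positive, so the filter favoured a high median as well. Of the 6 that reached 1 FPKM in both groups, 5 were higher, and Ccl5 is among the 6 through SMC-Ctrl replicate 3 alone. Over all genes, 40.7% of those tested and 39.4% of those that reached 1 FPKM in both groups were higher. Ptgs2, which encodes the prostaglandin enzyme COX-2, had 79.5, 78.4 and 80.0 FPKM in SMC-TAZ4SA, against 0, 0.0111 and 0.00627 FPKM in SMC-Ctrl (log2 fold change 6.32, limma adjusted p = 6.42e-11). Ccnd1 (cyclin D1) and Ier3 (an immediate early survival gene) followed, with 5.38 and 4.04. Sod2, the mitochondrial superoxide dismutase, was the exception, with 11.7, 11.1 and 11.6 FPKM in SMC-TAZ4SA, against 20.2, 19.1 and 21.0 FPKM in SMC-Ctrl (log2 fold change −0.76, limma adjusted p = 7.09e-06). The other 17 targets did not reach the filter, and none exceeded 0.964 FPKM in any library. Il1b and Saa3 were listed at 0 throughout. Cxcl2, Cxcl5, Csf2, Cd83 and Bcl2a1d were higher and Ptges lower in every SMC-TAZ4SA library, and for the rest the groups overlapped. Of all genes below the filter and above 0 in some library, 22% and 24.8% were apart in these senses.

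Markers of other cells were read beside these results, since many TNF superfamily genes are known from leukocytes, and fewer cells of a type cannot be told apart from less RNA per cell in bulk samples. The 15 leukocyte markers summed to 4.28 to 4.68 FPKM in SMC-TAZ4SA and 1.23 to 1.38 FPKM in SMC-Ctrl. Most of the SMC-TAZ4SA sum was Csf1r, at 2.97 to 3.39 FPKM there and listed at 0 in every SMC-Ctrl library. Of the 15 markers, 2 were tested: Csf1r, which could not have been called lower, was higher, and Cd68 did not pass. Ptprc (CD45) reached at most 0.0395 FPKM, and S100a8 and Tyrobp were listed at 0 in every library. The 6 endothelial markers summed to 2.08 to 2.47 FPKM in SMC-TAZ4SA and 0.600 to 0.659 FPKM in SMC-Ctrl, with Cldn5 and Emcn listed at 0 in every library. Most of that sum was Kdr, at 1.88 to 2.38 FPKM in SMC-TAZ4SA and 0.437 to 0.487 FPKM in SMC-Ctrl. Pecam1 and Tek were lower in every SMC-TAZ4SA library. Cdh5 was higher, at 0.0622 to 0.120 FPKM in SMC-TAZ4SA, and was listed at 0 in every SMC-Ctrl library. The 6 fibroblast markers summed to 269 to 313 FPKM in SMC-TAZ4SA and 0.512 to 0.644 FPKM in SMC-Ctrl. Nearly all of the SMC-TAZ4SA sum came from the collagen genes Col1a1 and Col1a2, while Dcn and Lum stayed at or below 0.179 FPKM. Pdgfra was higher in every SMC-TAZ4SA library, at 0.653 to 0.931 FPKM against 0.285 to 0.394 FPKM in SMC-Ctrl. Dcn and Fap were lower in every SMC-TAZ4SA library. The 6 lung epithelial markers summed to 4.27 to 5.95 FPKM in SMC-TAZ4SA and 22.3 to 27.3 FPKM in SMC-Ctrl. Scgb1a1 made up most of the SMC-Ctrl sum and was listed at 0 in every SMC-TAZ4SA library, whereas Ager was higher, with a log2 fold change of 1.17, and Foxj1 did not pass. The part of the fibroblast, endothelial and epithelial markers in the results was not tested.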

How the data were processed

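TRIzol-extracted RNA was sequenced as read pairs that were mapped to mm10, per the study's methods, with STAR 2.6 named in the submitters' notes. The authors deposited FPKM values with 1 column for each library. The counting tool, annotation and use of strand are not stated in the sources used. FPKM are not counts, so limma 3.58.1 in R 4.3.3 (1 term for the group, trended empirical Bayes, 2-sided tests, Benjamini-Hochberg) was fitted to log2(FPKM + 1) in place of the study's DESeq2. Fold changes on this scale understate the change of low genes. The 254 symbols on several lines were left out. Relative depth, read from the steps of low values, was 0.712 to 0.959 in SMC-TAZ4SA and 0.968 to 1.09 in SMC-Ctrl, with SMC-Ctrl replicate 1 set to 1. These estimates are rough. The peaks they were read from held 27 to 53 lines in SMC-TAZ4SA libraries, and 125 and 165 in SMC-Ctrl replicates 2 and 3. A lower depth would make low values less precise in SMC-TAZ4SA. Positions are from GENCODE M21 (GRCm38, the assembly of mm10), and promoters from RefSeq. The members and lists were chosen with earlier results of these data known. In each role the 4 largest changes among those past the threshold, the most abundant member and any that did not pass are given with their values in each library, and other members were added after their values were seen. The alternatives were a pseudocount of 0.1, other filters and scalings, no trend, summed lines, a replicate block and leaving out each library.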

Additional observations from a re-analysis of the deposited data

How the results depend on the processing

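Over 14 alternatives, between 22 and 32 members were higher and between 6 and 13 lower in SMC-TAZ4SA, against 26 and 9 as reported. The extremes came from the filters: 29 members were tested with a mean of at least 1 FPKM, and with no filter 6 of the 18 further members fitted were higher and 4 lower. Leaving out 1 library gave 24 to 26 higher and 8 or 9 lower members. When libraries were scaled to the same total, Traf2 (−0.024) and Traf4 (−0.15) turned negative, and Chuk (0.13) and Nfkbib (0.04) no longer passed. A pseudocount of 0.1 moved 12 members by over 1.5 times, all away from 0 and all low in at least 1 group. With the same upper quartile Nfkbib and Traf2 (0.04) no longer passed, and without single libraries Traf2, Nfkbib and Ikbkg did not. Scaling moved the median log2 fold change of all genes to −0.19 (same total) and −0.12 (same upper quartile), and of all changed genes 40.1% and 43.1% were then higher, in place of 50.6%. Replicate numbers did not pair the samples (r of same-numbered deviations −0.25, −0.06 and −0.31). With the replicate block 25 members were higher and 9 lower, and 4735 and 4615 of all genes. With it Traf2 did not pass (limma adjusted p = 0.0844). The ratios moved by less than the larger SD of the 2 groups when any library was left out, but this was no test of them. With 3 libraries in a group, leaving out 1 cannot move its mean by as much as its SD. Depth is unknown, so the 18 low members above 0 that were not tested cannot be given an error from counting.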
